A study of Mus musculus with 12 samples.

Results

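The genes described here are the hypoxia-inducible factors and a set of genes that regulate them or respond to them: Hif1a, Epas1, Egln1, Egln3, Vhl, Car9, Car12, Bnip3, Vegfa and Adm. They were chosen by gene symbol, and all 10 were found among the 55491 genes of the deposited count and TPM tables. The data come from PT-22, a mouse proximal tubule cell line with the genotype Pax2-/-,Pax8fl/fl,Rosa-CreERT2, which every group shares: Pax2 is absent, Pax8 carries loxP sites, and the Cre recombinase is active when 4-hydroxytamoxifen is present. Untreated control cells were set against cells 2, 6 and 12 days after treatment with 1 µM 4-hydroxytamoxifen, which was given for 2 days to remove PAX8, a transcription factor of the kidney epithelium. Each of the 4 groups held 3 libraries of polyA RNA, called A, B and C, which makes 12 libraries from 1 line. Whether A, B and C of a group are separate cultures is not stated in the labels, and the p-values therefore speak only for the spread among libraries, which may be technical. Neither vehicle-treated cells nor untreated cells of a later day were analysed here, so the agent, Cre activity, time in culture and PAX8 loss cannot be told apart.

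Library totals ran from 4326667 to 11654959 counts. Of the 14 proximal tubule markers, 9 averaged at least 1 CPM, and the transporters Slc34a1, Slc5a2 and Slc5a12 had 0 counts in every library, so the label of the line is met by part of its markers. The summed level of these 14 markers was 2006 to 2099.6 CPM in control libraries, 1605 to 1678 at day 2, 1518 to 1780 at day 6 and 974 to 1205 at day 12, and its members went both ways. Cdh16 averaged 1103, 454, 80.5 and 37.9 CPM in control, day 2, day 6 and day 12 libraries and Anpep 114, 33.1, 8.63 and 7.11 CPM, while Aqp1 averaged 173, 558, 1044 and 659 CPM. Of the markers of loop and distal tubule and of collecting duct, 0 of 6 and 0 of 6 averaged 1 CPM. An average of at least 1 CPM was found for 3 of 5 podocyte markers, 3 of 9 endothelial markers (Cdh5 and Kdr at 0 counts) and 2 of 8 leukocyte markers (Cd3e, Itgam and Tyrobp at 0). The Pax8 transcript averaged 225 ± 3.46, 402 ± 51.0, 256 ± 10.9 and 242 ± 10.5 CPM in control, day 2, day 6 and day 12 libraries (SD, n = 3 each). The table counts the whole gene, including exons outside any deleted stretch, so this transcript checks neither the labels nor the deletion.

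Cells sense low oxygen through the hypoxia-inducible factors, HIF. Their alpha subunits, HIF-1α (gene Hif1a) and HIF-2α (gene Epas1), are made continuously, and when oxygen is plentiful the prolyl hydroxylases EGLN1 and EGLN3 mark them for the ubiquitin ligase subunit VHL, which sends them to the proteasome. When oxygen is low the alpha subunits pair with ARNT and bind a short DNA core beside target genes, among them genes of glycolysis, pH control, mitophagy and vessel growth. In the kidney HIF-1α is found in tubule cells, and loss of VHL in tubule cells is the hallmark of clear cell renal carcinoma. Because oxygen acts mainly on the stability of the proteins, the transcripts measured here do not report how much HIF protein or HIF activity the cells had.

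The HIF binding core reads ACGTG or GCGTG, and both were searched on both strands of RefSeq promoter windows (GRCm38.p6), which span 250 bases before to 50 bases after each listed start. Windows of 5 genes are shown because these genes carry the changes described below and differ in their matches. They are those of Hif1a (chr12:73907617-73907916, plus strand), Bnip3 (chr7:138909457-138909756, minus strand), Egln1 (chr8:124949205-124949504, minus strand), Egln3 (chr12:54203825-54204124, minus strand) and Car12 (chr9:66713436-66713735, plus strand). Each is written 5′ to 3′ on the strand of its gene, with matches to either core, on either strand, in capitals.
Hif1a: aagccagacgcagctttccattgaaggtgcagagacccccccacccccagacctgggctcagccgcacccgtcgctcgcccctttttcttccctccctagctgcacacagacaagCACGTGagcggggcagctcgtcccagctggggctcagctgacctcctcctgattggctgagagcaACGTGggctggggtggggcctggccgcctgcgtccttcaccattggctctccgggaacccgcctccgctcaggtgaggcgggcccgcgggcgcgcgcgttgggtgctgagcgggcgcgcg
Bnip3: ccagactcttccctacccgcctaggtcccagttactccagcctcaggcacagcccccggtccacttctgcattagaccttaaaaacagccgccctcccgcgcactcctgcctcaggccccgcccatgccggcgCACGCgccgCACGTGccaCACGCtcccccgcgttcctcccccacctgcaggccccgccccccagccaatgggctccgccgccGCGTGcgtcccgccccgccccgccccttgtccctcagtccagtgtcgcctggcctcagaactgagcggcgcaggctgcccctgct
Egln1: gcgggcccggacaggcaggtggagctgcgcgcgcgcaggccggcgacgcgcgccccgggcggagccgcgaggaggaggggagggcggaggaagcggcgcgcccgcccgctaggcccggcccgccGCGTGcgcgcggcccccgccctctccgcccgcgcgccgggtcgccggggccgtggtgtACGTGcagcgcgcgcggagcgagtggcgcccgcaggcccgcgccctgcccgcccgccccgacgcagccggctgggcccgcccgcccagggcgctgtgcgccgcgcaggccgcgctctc
Egln3: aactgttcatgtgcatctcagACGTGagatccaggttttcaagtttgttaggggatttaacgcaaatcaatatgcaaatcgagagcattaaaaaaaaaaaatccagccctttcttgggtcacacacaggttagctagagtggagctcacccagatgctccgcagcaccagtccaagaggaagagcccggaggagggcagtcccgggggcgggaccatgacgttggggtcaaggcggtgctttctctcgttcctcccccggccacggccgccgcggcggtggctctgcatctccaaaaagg
Car12: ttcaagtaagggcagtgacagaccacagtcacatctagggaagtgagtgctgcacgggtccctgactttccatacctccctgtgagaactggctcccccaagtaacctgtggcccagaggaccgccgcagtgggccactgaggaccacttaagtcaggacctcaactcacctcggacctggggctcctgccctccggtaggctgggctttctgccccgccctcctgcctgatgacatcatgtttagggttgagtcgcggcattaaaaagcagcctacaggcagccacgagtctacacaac
The Bnip3 window held 5 matches, of which 2 are the same palindrome, CACGTG, read on both strands. The Hif1a window held 3 matches, again counting CACGTG on both strands, and the Egln1 window held 2. Egln3 had 1 match, 229 bases before its start, and Car12 had 0.

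Counts were compared with edgeR's quasi-likelihood test, fitted to 13513 genes that passed a filter on low counts, with Benjamini-Hochberg adjustment over all of them and 0.05 as the threshold. All adjusted p-values below are from edgeR unless another tool is named. Levels are given as CPM (counts per 1000000 counts of a library, with totals scaled by TMM) or as TPM where genes are compared with each other, since TPM also divides by transcript length. A fold change is a treated day over control, or a later over an earlier day, with its SE. Over the 4 groups together, 65.1% of all tested genes differed, and so did 7 of the 9 members that passed the filter. Vhl and Adm did not pass (adjusted p = 0.219 and 0.422), and Car9 was below the filter and was not in the fit. At day 2, 21.2% of all tested genes differed from control, and 3 of 9 members did, 2 higher and 1 lower (10.3% and 10.9% of all genes). By day 6, 54.3% of all genes and 7 of 9 members differed, 3 higher and 4 lower (26.7% and 27.6% of all genes). At day 12 it was 52.8% of all genes and 6 of 9 members, 3 higher and 3 lower (26.1% and 26.6% of all genes). The members' median log2 fold change was 0.14 at day 2, 0.18 at day 6 and 0.11 at day 12, against -0.00154, -0.00602 and -0.00283 over all tested genes. Libraries of a treated day and control did not overlap in CPM for 5 of the 9 members at day 2, 7 at day 6 and 7 at day 12, against 32.2%, 60.9% and 59.8% of all tested genes. The 3 comparisons share the control libraries. Between consecutive times, 6 of the 9 members did not overlap at day 6 against day 2 and 6 at day 12 against day 6, against 51.5% and 39.3% of all genes.

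**Figure D1:**
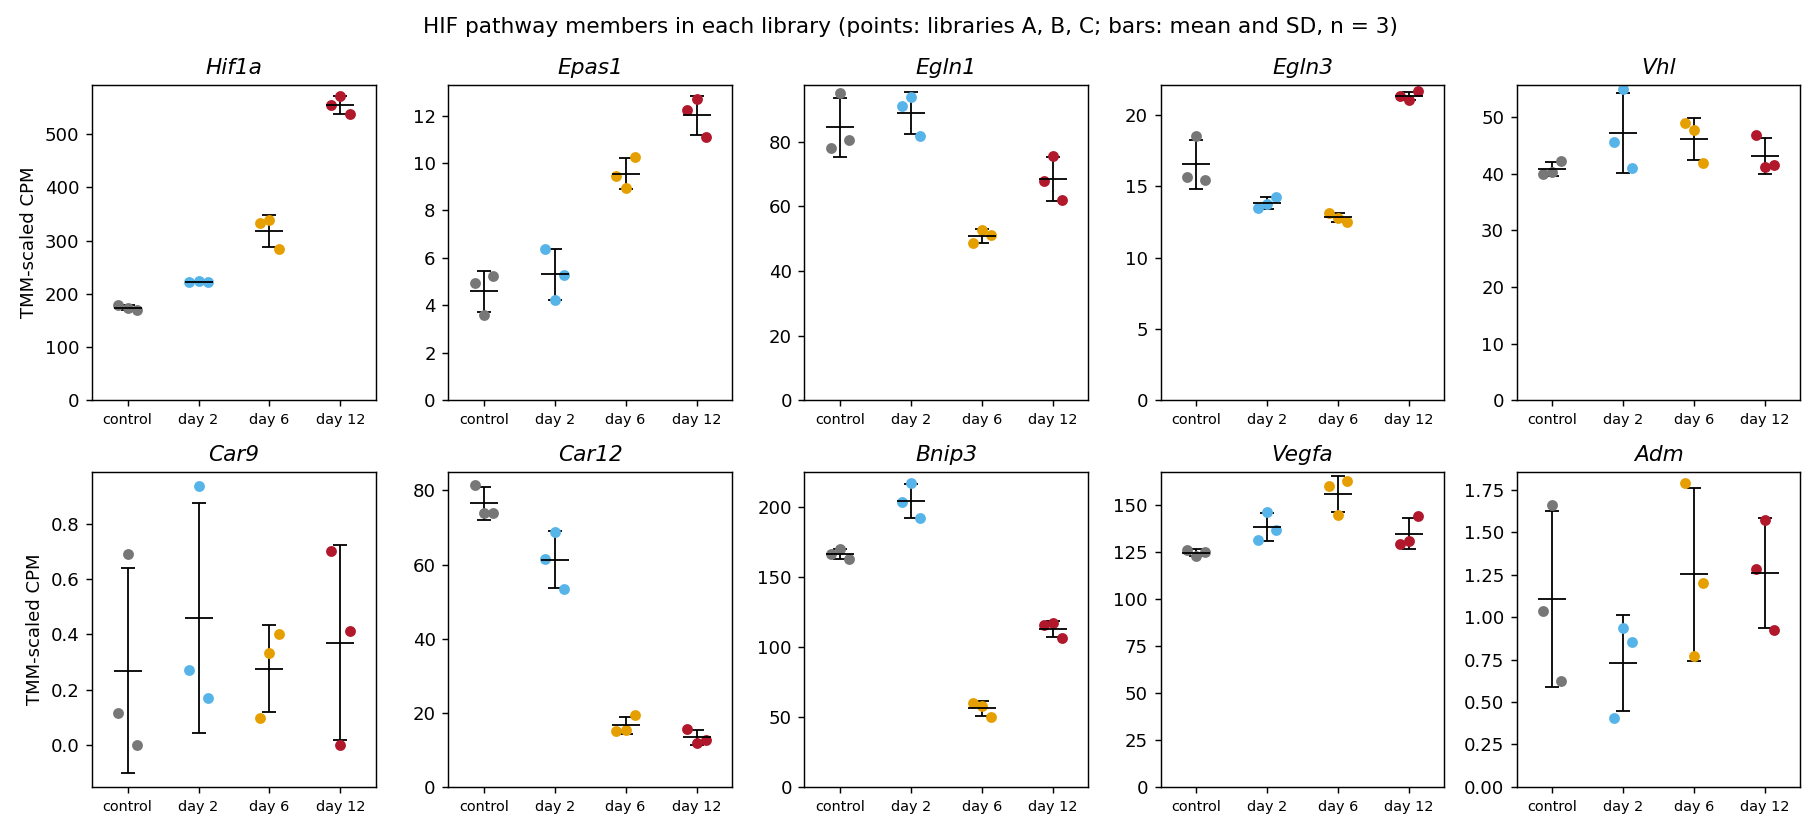
TMM-scaled CPM of the 10 members (vertical axis, a separate scale for each gene) in every library of control, day 2, day 6 and day 12 (horizontal axis), with points for libraries A, B and C and bars for the mean and SD of 3 libraries. Hif1a stood at 555 CPM and Car12 at 13.3 CPM at day 12, against 174 and 76.5 CPM in control cells, and Bnip3 had its lowest mean, 55.9 CPM, at day 6.

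Among the factors, Hif1a encodes the oxygen-regulated subunit of HIF-1 and Epas1 that of HIF-2. Hif1a rose at each time measured, to 3.19-fold of control at day 12, and Epas1 was 2.58-fold of control at that day. The control libraries had 178, 174 and 170 CPM of Hif1a (A, B and C). At day 2 the libraries had 223, 224 and 222 CPM of Hif1a, at day 6 they had 333, 339 and 284 CPM, and at day 12 they had 554, 573 and 538 CPM. No library of a later time reached down to any library of an earlier one. The log2 fold change of Hif1a against control was 0.36 ± 0.06 at day 2 (adjusted p = 1.93e-05), 0.88 ± 0.06 at day 6 (adjusted p = 9.02e-15) and 1.67 ± 0.06 at day 12 (adjusted p = 1.03e-22). It rose further by 0.52 ± 0.06 at day 6 against day 2 (adjusted p = 6.62e-09) and by 0.80 ± 0.06 at day 12 against day 6 (adjusted p = 9.36e-13), where 44.9% and 22.0% of all tested genes differed. Of the 9 tested members, 3 rose and 3 fell at day 6 against day 2, where 22.6% of all genes rose and 22.3% fell, and 4 rose and 1 fell at day 12 against day 6, where 11.0% rose and 11.0% fell.

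Epas1 was a low transcript throughout, with 18 to 113 counts in a library. It had 4.95, 3.60 and 5.23 CPM in control libraries, 6.39, 4.21 and 5.29 CPM at day 2, 9.44, 8.95 and 10.3 CPM at day 6, and 12.3, 12.7 and 11.1 CPM at day 12. Control and day 2 overlapped, while every day 6 and day 12 library lay above both. The log2 fold change of Epas1 against control was 0.22 ± 0.20 at day 2 (95% interval -0.24 to 0.68, adjusted p = 0.502), 1.03 ± 0.18 at day 6 (adjusted p = 8.28e-06) and 1.36 ± 0.17 at day 12 (adjusted p = 2.96e-08). The rise at day 6 against day 2 was 0.81 ± 0.18 (adjusted p = 0.000337), and day 12 against day 6 did not pass, at 0.33 ± 0.15 (adjusted p = 0.126). The TPM table gave a different picture for Epas1 in control C alone: 3.85 TPM from 50 counts, against 1.40 TPM from 43 counts in control A. On log2(TPM + 1), limma left Epas1 without a call at day 6 and day 12 against control (adjusted p = 0.232 and 0.0858), at day 6 against day 2 (adjusted p = 0.0940) and over the 4 groups (adjusted p = 0.0665). With a pseudocount of 0.1 or without the filter on low values these calls were lost as well. With control C left out, an alternative chosen after seeing the data, limma called all 4 (adjusted p = 0.00617, 0.00164, 0.0146 and 0.00209).

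Hif1a was the more abundant of the factors per length in every group, at 60.1, 76.1, 119 and 202 TPM in control, day 2, day 6 and day 12 libraries. Epas1 averaged 2.07 ± 1.55, 1.47 ± 0.33, 2.89 ± 0.20 and 3.51 ± 0.27 TPM in the same order (SD, n = 3 each). The ratio of mean TPM, Hif1a over Epas1, was 29.0, 51.7, 41.1 and 57.7, of which the first carries the high control C value. Of the 9 fibroblast and smooth muscle markers, 4 averaged at least 1 CPM, and Pdgfra and Col3a1 had 0 counts in every library. The summed level of the 9 was 5.53 to 6.17 CPM in control libraries, 14.3 to 21.0 at day 2, 63.3 to 85.2 at day 6 and 309 to 357 at day 12, most of it Acta2, and so it moved with Hif1a and Epas1. Among the others, Dcn averaged 17.8 ± 1.33 CPM at day 12, against 0.246 ± 0.153 CPM in control libraries, Postn 7.70 ± 1.43 CPM, against 0.0810 ± 0.0721 CPM, and Pdgfrb 1.21 ± 0.0386 CPM, against 0.0768 ± 0.133 CPM (SD, n = 3 each). Not all of the 9 rose in this way. Col1a1 averaged 2.20 ± 0.310, 4.23 ± 1.29, 2.63 ± 0.832 and 3.03 ± 0.413 CPM in control, day 2, day 6 and day 12 libraries, highest at day 2. Lum had at most 1 count in a library. The part of these markers in the rise of Hif1a and Epas1 was not tested. In a bulk library, more cells of a kind and more RNA per cell cannot be told apart.

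**Figure D2:**
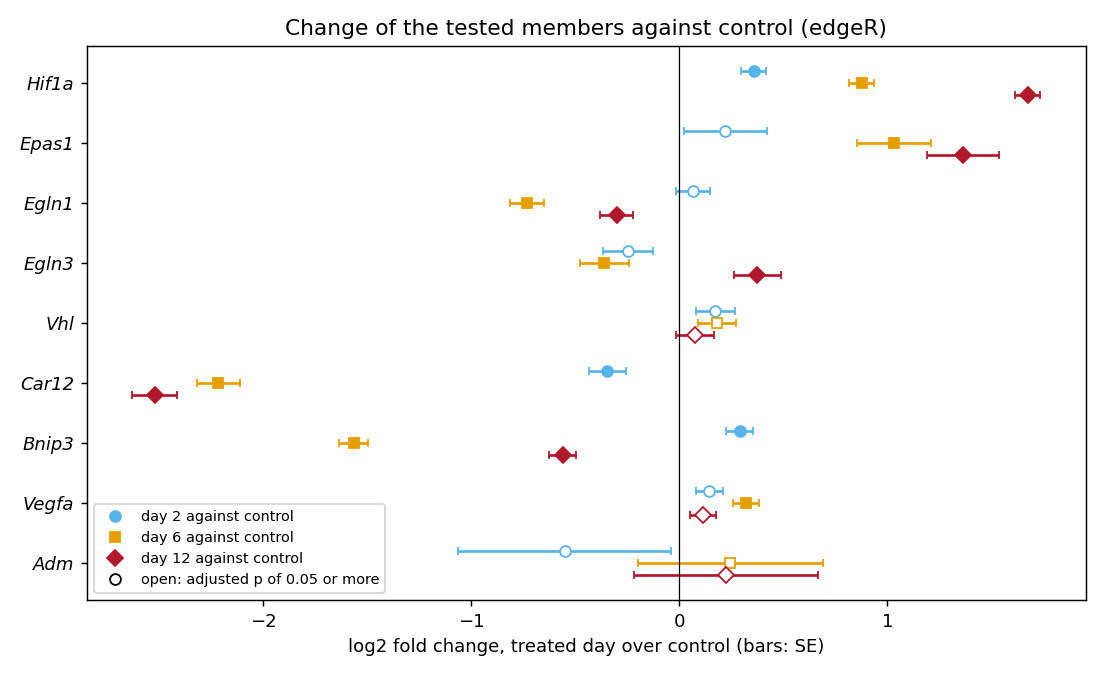
Log2 fold change of the 9 tested members at days 2, 6 and 12 over control (horizontal axis), with bars for the SE of the edgeR fit and open symbols where the adjusted p was 0.05 or more. Hif1a and Epas1 lie right of 0 at day 12, at 1.67 and 1.36, and Car12 and Bnip3 lie left of it, at -2.52 and -0.56.

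The genes that turn HIF-α over did not move as a group. Egln1, the main HIF prolyl hydroxylase and itself a HIF target, fell to 60.1% of its control level at day 6 and stood at 81.0% at day 12. Egln3, an inducible prolyl hydroxylase, fell modestly at day 6 and rose above control at day 12. Vhl, the subunit that recognises hydroxylated HIF-α, passed no comparison.

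Egln1 had 78.1, 94.9 and 80.4 CPM in control libraries and 91.1, 93.8 and 81.6 CPM at day 2, and these groups overlapped. At day 6 it had 48.5, 52.6 and 51.2 CPM, and at day 12 it had 67.7, 75.5 and 62.0 CPM. Every day 6 library lay below every library of the other groups, and the day 12 libraries lay between. Against control the log2 fold change of Egln1 was 0.07 ± 0.08 at day 2 (95% interval -0.12 to 0.25, adjusted p = 0.639), -0.73 ± 0.08 at day 6 (adjusted p = 2.95e-09) and -0.30 ± 0.08 at day 12 (adjusted p = 0.00181). It was 0.80 lower on the log2 scale at day 6 than at day 2, a change of -0.80 ± 0.08 (adjusted p = 1.21e-09), and rose by 0.43 ± 0.08 at day 12 against day 6 (adjusted p = 0.000226). The call at day 12 against control was lost on log2(TPM + 1) (limma adjusted p = 0.0568).

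Egln3 had 15.7, 18.5 and 15.5 CPM in control libraries, 13.5, 13.8 and 14.3 CPM at day 2, 13.1, 12.8 and 12.5 CPM at day 6, and 21.4, 21.1 and 21.7 CPM at day 12. The day 12 libraries were the highest of all and did not overlap with any other group. The log2 fold change of Egln3 against control was -0.25 ± 0.12 at day 2 (95% interval -0.53 to 0.03, adjusted p = 0.160), -0.36 ± 0.12 at day 6 (adjusted p = 0.0110) and 0.38 ± 0.11 at day 12 (adjusted p = 0.00510). Day 12 exceeded day 6 by 0.73 ± 0.11 (adjusted p = 9.70e-06). The call at day 6 was lost without control B, the highest control library (log2 fold change -0.28, adjusted p = 0.0733), although the remaining control libraries still lay above every day 6 library, and it was lost on log2(TPM + 1) (limma adjusted p = 0.0561).

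Vhl had 40.0, 40.3 and 42.3 CPM in control libraries, 45.7, 55.0 and 41.1 CPM at day 2, 48.9, 47.7 and 41.9 CPM at day 6, and 46.8, 41.2 and 41.5 CPM at day 12. All treated groups overlapped with control in CPM, while in TPM the day 6 libraries (26.3 to 30.5) lay above control (22.6 to 25.8). Its log2 fold change was 0.17 ± 0.09 at day 2 (95% interval -0.04 to 0.39, adjusted p = 0.209), 0.18 ± 0.09 at day 6 (-0.03 to 0.39, adjusted p = 0.0925) and 0.08 ± 0.09 at day 12 (-0.13 to 0.29, adjusted p = 0.508), and together the intervals span -0.13 to 0.39. Leaving out day 2 C gave Vhl a call at day 2 (adjusted p = 0.0360), and leaving out day 2 B or day 6 C gave it one at day 6 (lowest adjusted p = 0.0414). An edgeR fit of only the 6 libraries compared also called Vhl at day 6 (adjusted p = 0.0469).

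A further 15 genes of the HIF machinery were looked at beside the members, and 14 were tested. This list and those below came from general knowledge, but were drawn up with earlier results of these data known. At day 2, 2 were higher, 0 lower and 12 without a call, at day 6 they were 6, 2 and 6, and at day 12 they were 4, 2 and 8. The shares of all tested genes higher and lower were 10.3% and 10.9%, 26.7% and 27.6%, and 26.1% and 26.6% on these days, and every list below is set against the same shares. The list's median log2 fold changes were 0.00936, 0.028 and -0.00962, close to those of all genes. Cited2, a HIF target whose product competes with HIF-α for the coactivators p300 and CBP, averaged 108 ± 8.08, 146 ± 7.04, 198 ± 5.10 and 174 ± 6.78 CPM in control, day 2, day 6 and day 12 libraries (SD, n = 3 each), and its log2 fold change was 0.88 at day 6 (adjusted p = 1.93e-14) and 0.69 at day 12. Arnt, the partner of both alpha subunits, averaged 133 ± 0.35, 155 ± 5.70, 167 ± 3.90 and 167 ± 8.46 CPM and rose at each day, by 0.22, 0.33 and 0.32 on the log2 scale. Its relative Arnt2 was lower at day 12, at 93.3 ± 1.67 CPM, against 119 ± 3.26 CPM in control libraries (log2 fold change -0.35, adjusted p = 6.59e-06), a call that was lost on log2(TPM + 1) (limma adjusted p = 0.138). Siah1a, a ubiquitin ligase that acts on prolyl hydroxylases, rose by 0.57 at day 12 (adjusted p = 4.74e-06). The counts of machinery genes that fell are fragile: on log2(TPM + 1) 0 passed at day 6 and 0 at day 12, and with DESeq2 1 passed at day 12. Hif3a, which encodes the remaining alpha subunit, had 1 to 10 counts in a library and was not tested.

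Car9 and Car12 encode membrane carbonic anhydrases that face the outside of the cell and adjust its pH, and both are known HIF targets in human cancer cells. Car12 showed the deepest fall of the members, to 21.7% of control at day 6 and 17.5% at day 12. Its libraries had 81.6, 73.9 and 74.0 CPM in control cells, 61.6, 68.7 and 53.5 CPM at day 2, 15.1, 15.4 and 19.3 CPM at day 6, and 15.5, 11.8 and 12.7 CPM at day 12. Every treated library lay below every control library, and day 6 and day 12 overlapped. The log2 fold change of Car12 against control was -0.35 ± 0.09 at day 2 (adjusted p = 0.00422), -2.22 ± 0.10 at day 6 (adjusted p = 1.84e-18) and -2.52 ± 0.11 at day 12 (adjusted p = 1.03e-19), a level 4.65-fold lower at day 6 and 5.74-fold lower at day 12. Most of the fall lay between days 2 and 6, at -1.87 ± 0.11 (adjusted p = 1.33e-15), and day 12 against day 6 gave -0.31 ± 0.13 (adjusted p = 0.0923). The call at day 2 was lost without day 2 C (adjusted p = 0.0665) and on log2(TPM + 1) (limma adjusted p = 0.101). The summed proximal tubule marker level given above was also lowest at day 12, 974 to 1205 CPM, against 2006 to 2099.6 CPM in control libraries, although this sum joins the lower Cdh16 and Anpep with the higher Aqp1. The part of these markers in the fall of Car12 was not tested.

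Car9 was nearly silent, with 1, 5 and 0 counts in control libraries, 2, 4 and 2 at day 2, 1, 3 and 3 at day 6, and 6, 0 and 4 at day 12. The library totals allow up to 0.314 CPM in control C and 0.337 CPM in day 12 B, where the count was 0 (3 counts taken as the limit, for counting error only). The treated groups overlapped with control in CPM, while in TPM the day 2 libraries (2.09, 0.94 and 1.23) lay above control (0.12, 0.56 and 0). These TPM values do not follow the counts: day 2 A had 2.09 TPM from 2 counts, and control B had 0.56 TPM from 5 counts. A permutation test of CPM, exact and two-sided, gave p = 0.5 at day 2, p = 1 at day 6 and p = 0.8 at day 12 against control, where 0.1 is the smallest p that 3 against 3 libraries allow. Car9 overlaps the antisense gene Gm12454, which had 1 to 7 counts itself, and no source used here says whether counting used strand, so even these few counts are uncertain.

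Of 14 other carbonic anhydrase genes, 6 were tested: 2 fell and 0 rose at day 2, 3 fell and 0 rose at day 6, and 2 fell and 1 rose at day 12, where 10.9%, 27.6% and 26.6% of all tested genes fell. Car2, the abundant cytosolic enzyme of tubule cells, averaged 108 ± 7.10, 52.4 ± 0.83, 26.9 ± 2.36 and 15.2 ± 1.32 CPM in control, day 2, day 6 and day 12 libraries (SD, n = 3 each), and its log2 fold change was -2.83 at day 12 (adjusted p = 2.07e-24). Mitochondrial Car5b averaged 63.4, 32.5, 21.2 and 21.3 CPM in the same order, a log2 fold change of -1.57 at day 12 (adjusted p = 1.38e-15). The other calls were of genes near 1 CPM: Car15 at day 6 (-1.43, adjusted p = 0.0207) was lost without day 6 A (adjusted p = 0.175), and Car7 at day 12 (1.31, adjusted p = 0.0254) was lost without control A (adjusted p = 0.121) and with DESeq2 (adjusted p = 0.0749).

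Bnip3 encodes an outer mitochondrial membrane protein that recruits the autophagy machinery and is a direct HIF target. It moved in both directions: it was higher than control at day 2, at 33.6% of control at day 6, and at 67.8% at day 12. The libraries had 166, 170 and 163 CPM of Bnip3 in control cells, 203, 217 and 192 CPM at day 2, 60.1, 58.0 and 49.6 CPM at day 6, and 116, 117 and 106 CPM at day 12. All 4 groups were separate, in the order day 6, day 12, control, day 2 from low to high. The log2 fold change of Bnip3 against control was 0.29 ± 0.06 at day 2 (adjusted p = 0.000639), -1.56 ± 0.07 at day 6 (adjusted p = 6.19e-20) and -0.56 ± 0.06 at day 12 (adjusted p = 3.54e-09). Between days it fell by 1.85 ± 0.07 at day 6 against day 2 (adjusted p = 2.30e-21) and rose by 1.00 ± 0.07 at day 12 against day 6 (adjusted p = 4.70e-13). The rise at day 2 kept its call on log2(TPM + 1) but not once the filter on low values was dropped (limma adjusted p = 0.0846) or control C was left out of that fit (0.138).

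Of 17 symbols of mitophagy receptors and autophagosome genes, 15 were tested: 8 rose, 2 fell and 5 had no call at day 6, where 26.7% of all tested genes rose and 27.6% fell. At day 2 the counts were 2, 1 and 12, against 10.3% and 10.9% of all genes, and at day 12 they were 7, 3 and 5, against 26.1% and 26.6%. The small counts moved with the fit: 5 rose and 2 fell at day 2 without day 2 C, and on log2(TPM + 1) 0 fell at day 2, 1 at day 6 and 1 at day 12. Bnip3l, the closest relative of Bnip3, gave 176 ± 5.63, 182 ± 7.72, 188 ± 3.65 and 190 ± 6.23 CPM in the 4 groups and no call on any day; it was named after its values were seen. Gabarapl1, an autophagosome protein of the family that BNIP3 binds, averaged 199 ± 5.79 CPM at day 6, against 79.3 ± 3.36 CPM in control cells (log2 fold change 1.33, adjusted p = 1.39e-18). The autophagy receptor Sqstm1 rose by 0.91 (adjusted p = 4.01e-17), Map1lc3b by 0.78 (adjusted p = 2.49e-13) and the mitophagy kinase gene Pink1 by 1.28 (adjusted p = 1.07e-11) at day 6. At day 12 against day 6, 1 of the 15 rose and 5 fell, where 11.0% of all genes rose and 11.0% fell.

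Vegfa encodes the main vascular growth factor and Adm the vasodilator peptide adrenomedullin, both secreted and both HIF targets. Vegfa was abundant and changed little, with 1.25-fold of control at day 6 as its one call against control. It had 126, 123 and 125 CPM in control libraries, 132, 146 and 137 CPM at day 2, 160, 145 and 163 CPM at day 6, and 129, 131 and 144 CPM at day 12. Every treated library was above every control library in CPM, but the treated groups lay close together. In TPM, control (99.6 to 115.7) overlapped with day 2 (109.7 to 114.1) and day 12 (100.8 to 119.6). The log2 fold change of Vegfa was 0.14 ± 0.06 at day 2 (95% interval -0.000733 to 0.29, adjusted p = 0.105), 0.32 ± 0.06 at day 6 (adjusted p = 3.76e-05) and 0.11 ± 0.06 at day 12 (-0.03 to 0.26, adjusted p = 0.124). Day 6 against day 2 gave 0.18 ± 0.06 (adjusted p = 0.0195) and day 12 against day 6 gave -0.21 ± 0.06 (adjusted p = 0.0123). Both of these were lost without either day 6 A or day 6 C, the first also without day 2 A and the second also without day 12 A or day 12 B (highest adjusted p = 0.0994 and 0.0796).

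Adm was near the limit of detection, with 9, 12 and 6 counts in control libraries, 3, 4 and 10 at day 2, 18, 7 and 9 at day 6, and 11, 14 and 9 at day 12. The groups overlapped, and the log2 fold change was -0.55 ± 0.51 at day 2 (95% interval -1.73 to 0.63, adjusted p = 0.515), 0.25 ± 0.44 at day 6 (-0.78 to 1.27, adjusted p = 0.665) and 0.22 ± 0.44 at day 12 (-0.80 to 1.25, adjusted p = 0.700). The intervals at days 6 and 12 hold a rise of 1 on the log2 scale, so the missing calls do not show that Adm was unchanged. The smallest change detectable at this depth was not tested.

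The receptors and sister ligands of both peptides were followed in a list of 16 symbols, of which 11 were tested. At day 2, 3 rose and 5 fell, at day 6 it was 6 and 5, and at day 12 it was 5 and 5, against 10.3% and 10.9%, 26.7% and 27.6%, and 26.1% and 26.6% of all tested genes. On log2(TPM + 1), 3 in place of 5 fell at day 2. Nrp2, a VEGF coreceptor, averaged 61.6, 111, 269 and 273 CPM in control, day 2, day 6 and day 12 libraries, with a log2 fold change of 2.15 at day 12 (adjusted p = 1.11e-24). The ligand gene Vegfd averaged 19.8, 14.7, 5.91 and 4.31 CPM in the same order and was lower by -2.20 at day 12 (adjusted p = 2.16e-13). On the adrenomedullin side, the scavenger receptor gene Ackr3 was at 11.8 CPM at day 6, against 89.7 CPM in control cells (log2 fold change -2.94, adjusted p = 2.04e-23), and the coreceptor gene Ramp2 was at 1.97 CPM at day 12, against 10.7 CPM in control cells (-2.43, adjusted p = 1.04e-11). The remaining receptors were named after their values were seen. Kdr, the main signalling receptor of VEGF-A, had 0 counts in every library, which allows up to 3 counts in each, and Calcrl, which pairs with RAMP2 to bind adrenomedullin, had 0 to 2. The VEGF receptor genes Flt1 and Flt4 rose at every day. Flt1 averaged 26.6, 42.0, 37.6 and 44.9 CPM in control, day 2, day 6 and day 12 libraries (log2 fold change 0.75 at day 12, adjusted p = 9.16e-10), and Flt4 averaged 8.04, 14.6, 15.8 and 23.9 CPM (1.57 at day 12, adjusted p = 2.18e-12). The VEGF coreceptor gene Nrp1 was lower than control at every day, at 40.3, 19.2, 31.6 and 34.6 CPM in the same order. Its log2 fold changes were -1.09, -0.36 and -0.23 (adjusted p = 5.43e-11, 0.000775 and 0.0272).

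The order of the members by level changed with time. In control cells, by mean TPM, Bnip3 (174) stood above Vegfa (109), Hif1a (60.1), Egln1 (37.4), Car12 (33.3), Vhl (24.1), Egln3 (10.2), Epas1 (2.07), Adm (1.45) and Car9 (0.227). Neighbours were separate in all libraries except Egln1 and Car12, and Epas1 and Adm, which overlapped. At day 2 Bnip3 still led, at 208 TPM, with Vhl and Car12 now overlapping at 27.1 and 26.1 TPM, as did Epas1, Car9 and Adm at the low end. The place of Car9 there rests on 2 to 4 counts in a library, which its TPM values do not follow. At day 6 Vegfa (140) and Hif1a (119), whose libraries overlapped, stood above Bnip3 (66.0), and at day 12 Hif1a (202) stood alone above Bnip3 (119) and Vegfa (111), which overlapped. Car12 moved down past Vhl and Egln3 to 6.50 TPM at day 12, below the 13.7 TPM of Egln3.

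Over the 12 libraries, the members formed opposing profiles. The correlations of log2 CPM given here describe 12 libraries in 4 groups, so most of what the points share is the group, and 10494 genes of at least 5 CPM were searched for the closest profiles. Hif1a and Epas1 had a Pearson r of 0.91, and Car12 ran opposite to both, at -0.92 and -0.94. Bnip3 and Egln1 had an r of 0.96 with each other, and Bnip3 and Hif1a of -0.47. The 3 genes most like Bnip3 were Pgk1 (0.982) and Ldha (0.979), which encode enzymes of glycolysis, and Rhobtb3 (0.974). Those most like Egln1 were Mif (0.977), the lactate exporter gene Slc16a3 (0.972) and the glycolytic Tpi1 (0.967). Slc16a3 averaged 58.4 ± 6.57, 70.0 ± 10.1, 23.0 ± 0.79 and 35.7 ± 3.26 CPM in control, day 2, day 6 and day 12 libraries (SD, n = 3 each), the same lowest point at day 6 as Bnip3 and Egln1. The genes most like Hif1a were Palld (0.993), Orai2 (0.992) and Pls3 (0.991), none of which is in the lists used here. For Epas1 they were Tnfsf15, Ikbip and Akr1c18 (0.979 to 0.993), for Car12 Tns1, Sox8 and Ccdc198 (0.987 to 0.994), for Egln3 Fastkd2, Atg3 and Creb5 (0.930 to 0.953), and for Vegfa Maged1, Hoxc11 and Slc9a5 (0.937 to 0.956).

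**Figure D3:**
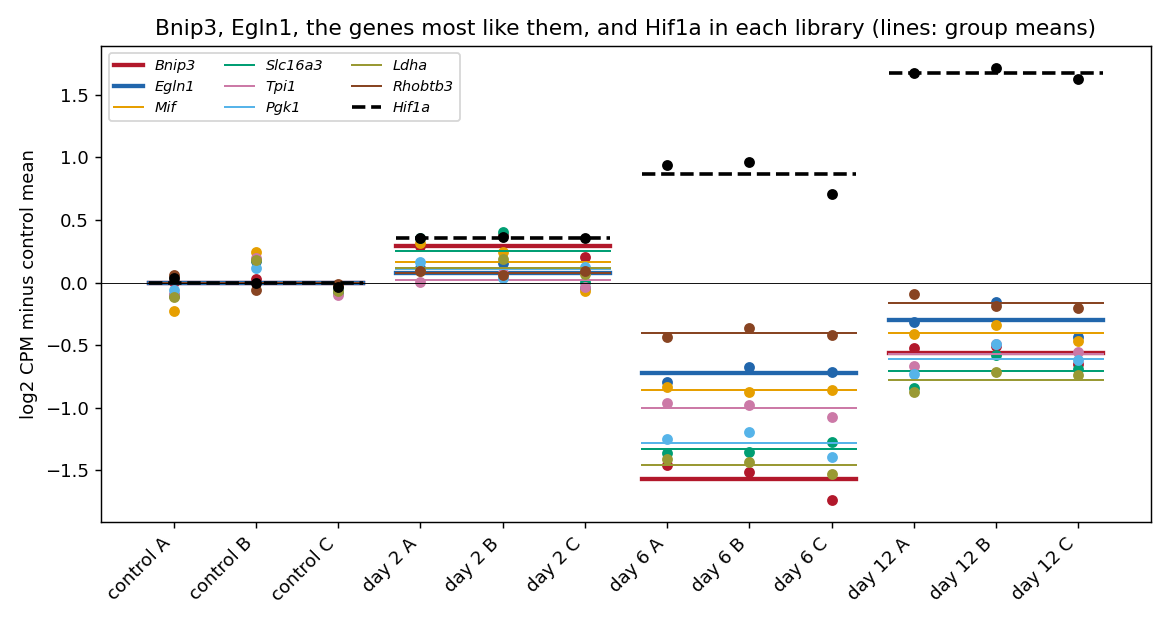
Log2 CPM minus the control mean (vertical axis) of Bnip3, Egln1, the genes most like each, and Hif1a in the 12 libraries (horizontal axis), with a point for each library and a line for each group mean. Bnip3, Egln1 and the genes like them have their lowest means at day 6 and lie higher at day 12, while Hif1a rises from day 2 through day 12.

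Other genes known to respond to hypoxia were more often lower than higher at day 6, and more often higher than lower at day 12 against day 6. Of 40 symbols listed, 33 were tested. At day 2, 9 were higher, 6 lower and 18 without a call, against 10.3% of all tested genes higher and 10.9% lower, and on log2(TPM + 1) 5 in place of 9 were higher. At day 6, 8 were higher, 18 lower and 7 without a call, against 26.7% and 27.6% of all genes, and at day 12 the counts were 10, 17 and 6, against 26.1% and 26.6%. The list's median log2 fold change was 0.11, -0.64 and -0.21 at the 3 days. At day 12 against day 6, 14 of the 33 rose and 3 fell, where 11.0% of all tested genes rose and 11.0% fell.

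The 4 genes with the smallest p of the list were Stc2, P4ha1, Ldha and Pgk1. Ldha, lactate dehydrogenase, averaged 374 ± 16.1 CPM at day 6 and 600.4 ± 34.3 CPM at day 12, against 1032 ± 118 CPM in control cells, and Pgk1, phosphoglycerate kinase, had 311 ± 21.4 and 494 ± 41.5 CPM, against 756 ± 52.2 CPM. Neither passed at day 2 (adjusted p = 0.247 and 0.244), and both rose at day 12 against day 6, by 0.68 and 0.67 on the log2 scale (adjusted p = 2.93e-09 and 1.57e-09). P4ha1, a collagen prolyl hydroxylase, averaged 67.5 ± 4.68 CPM at day 6, against 256 ± 9.64 CPM in control cells (log2 fold change -1.92, adjusted p = 1.94e-23). Stc2, a secreted glycoprotein, had the largest fall of the list at each day, with 128 ± 0.93, 35.7 ± 0.87, 18.7 ± 0.91 and 21.9 ± 0.59 CPM in control, day 2, day 6 and day 12 libraries (log2 fold change -2.78 at day 6, adjusted p = 1.08e-25).

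Some targets went the other way, and they were picked out after their values were seen. Ccng2, a cyclin of arrested cells, rose by 0.61 at day 2 and by 0.86 at day 12, and Angptl4 by 1.02 at day 12 (adjusted p = 3.22e-05). Epo, the hormone gene known for its control by HIF-2, had 0 or 1 count in a library.

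**Figure D4:**
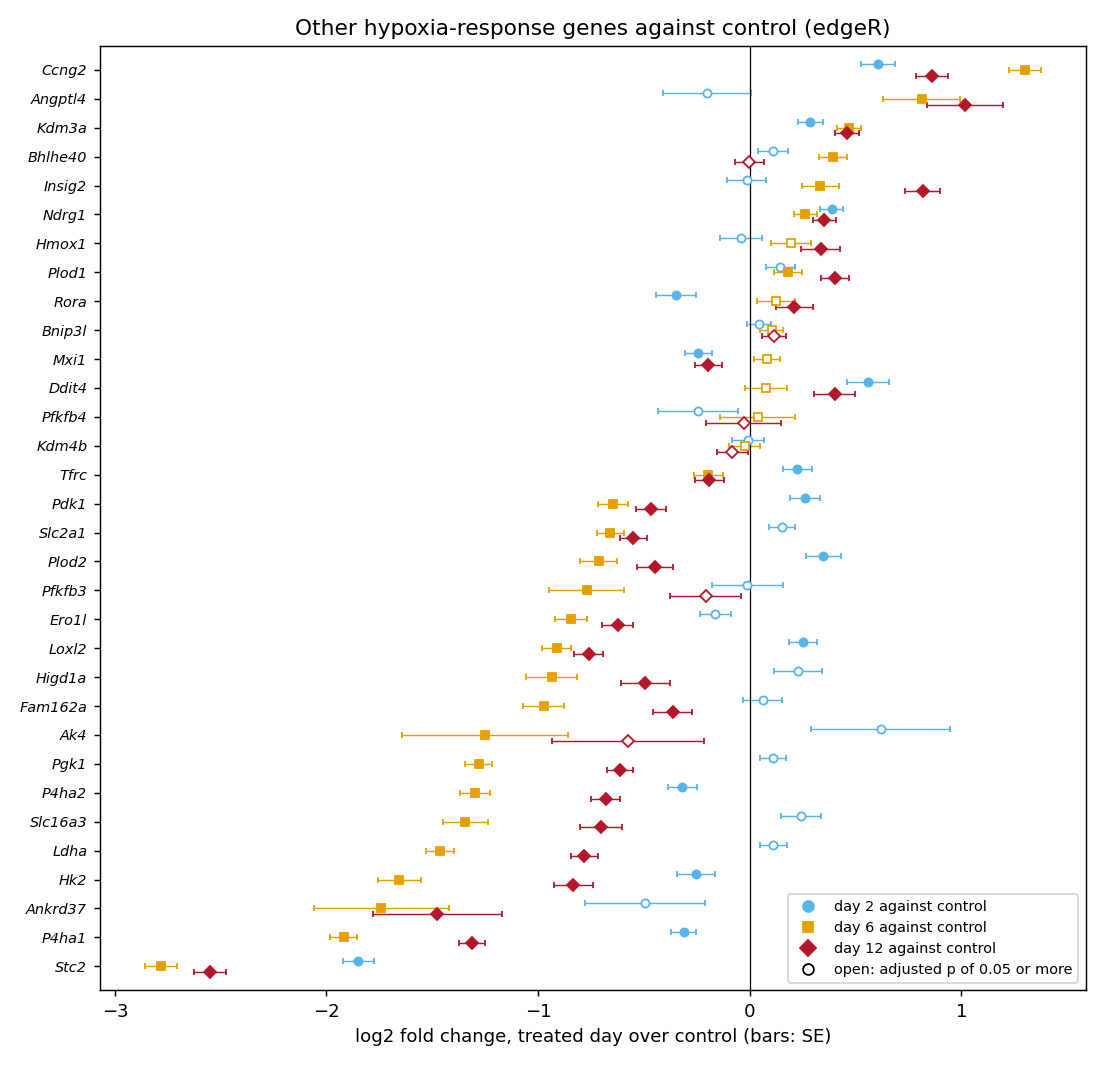
Log2 fold change of the other hypoxia-response genes tested, all but 1 of the 33, at days 2, 6 and 12 over control (horizontal axis), sorted by day 6, with bars for the SE of the edgeR fit and open symbols where the adjusted p was 0.05 or more. Of the 33 genes, 18 were lower and 8 higher at day 6, with Stc2 lowest at -2.78.

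RefSeq windows were found for 9 of the 10 members, 10 windows in all because Vegfa has 2, and not for Epas1. A core was present in 7 of the 10 windows (70.0%), against 14380 of 32851 windows of all genes (43.8%). ACGTG alone was in 6 , against 19.6% of all windows. Base composition differed as well: the median GC content was 60.7% in the members' windows and 52.7% in all. Bnip3, Egln1, Hif1a and Egln3 held cores as shown above. Car9 had 1 match, 18 bases before its start on the other strand, Adm had 2 on the other strand, and the inner of the Vegfa windows had 2. Vhl, Car12 and the outer Vegfa window had 0. The inner Vegfa start (46025163) and the Hif1a start (73907867) lie well inside the annotated genes, at chr17:46016993-46032369 and chr12:73901375-73947530. The last bases of these windows were not found in annotated transcripts of the gene, unlike those of the other windows. Their matches may therefore not lie in a promoter, and the counts of windows above include them. Both Hif1a, which rose, and Bnip3, whose level at day 6 was the lowest of its course, held CACGTG, and Car12, the member that fell most, held no core. In the list of other hypoxia targets, 34 of 40 windows held a core (85.0%) and 20 held ACGTG, at a median GC content of 66.0%. ACGTG was in 2 of 13 windows of the HIF machinery, 0 of 15 of the VEGF and adrenomedullin list, 4 of 13 of the carbonic anhydrases and 4 of 12 of the mitophagy list. A match describes letters in this window and is not evidence of binding, and where there was none, sites outside the window were not searched.

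**Figure D5:**
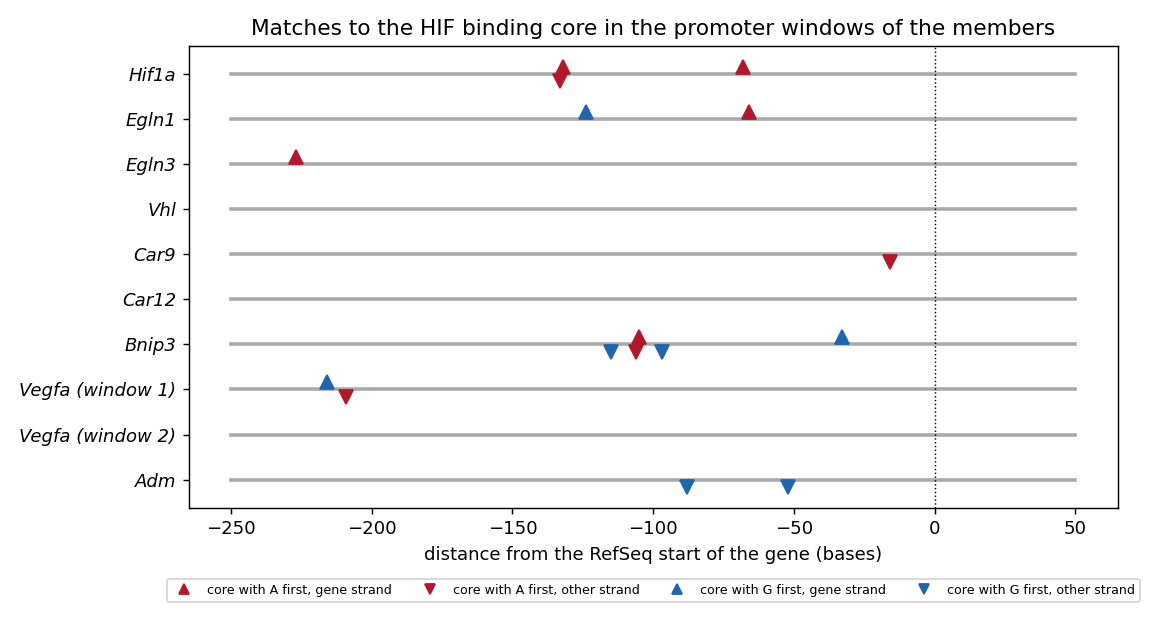
Matches to the HIF binding core in the RefSeq windows of 9 members, by distance from the listed start in bases (horizontal axis), with upward triangles for the strand of the gene and downward ones for the other strand, and colour for the first base of the core. Bnip3 holds 5 matches and Vhl and Car12 hold 0.

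The members lie on 7 chromosomes of GRCm38 in the GENCODE M21 annotation, and those that moved together are not neighbours. Hif1a spans chr12:73901375-73947530 on the plus strand and Epas1 chr17:86753700-86833410 on the plus strand. Egln1 spans chr8:124908587-124949324 on the minus strand, Bnip3 chr7:138890836-138909519 on the minus strand, and Car12 chr9:66713686-66766845 on the plus strand. Egln3 (chr12:54178981-54203860, minus strand) shares its chromosome with Hif1a, and Vegfa (chr17:46016993-46032369, minus strand) with Epas1. Genes annotated as overlapping Adm, Bnip3, Hif1a or Epas1 had 0 to 4 counts in a library.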

How the data were processed

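PolyA RNA of PT-22 cells was sequenced in 12 libraries. The submitters' processing notes name GRCm38 as build and, as the authors' tools, RSEM 1.3.3, STAR 2.7.8a, FastQC 0.11.8 and cutadapt 2.3. The annotation release, strand use and filters are not given in the sources used here. The expected counts deposited by the authors are whole numbers without normalization. The TPM values were deposited by the authors as a separate table. All columns were used (0 left out).

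The test was that of edgeR 4.0.16 in R 4.3.3, after filterByExpr by group (13513 genes left) and TMM scaling: 1 robust quasi-likelihood model of the group over all 12 libraries, with a common biological coefficient of variation of 0.0577 and 8 residual degrees of freedom, two-sided, with Benjamini-Hochberg adjustment over all genes tested. The SE is the log2 fold change divided by the square root of F, and 95% intervals use 8 degrees of freedom and are not adjusted. These intervals are wider than the edgeR test implies. For Vegfa at day 2 against control the interval holds 0, while the unadjusted edgeR p was 0.0282. A prior count of 2 was added for log2 CPM. Car9, the member under the filter, was tested by exact permutation, and other genes under the filter were not tested. The scripts were tested on simulated data. Alternatives were DESeq2 1.42.0 and limma 3.58.1 on log2(TPM + 1), other scalings, filters and samples, and each library left out in turn.

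No pair of replicates was a copy (chi-square per degree of freedom 2.12 to 7.56 over genes with at least 20 counts). Limits drawn from a count of 0 cover counting error only.

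The members and the gene lists were chosen with earlier results of these data known. Genes named are the 10 members, in each list up to 4 with the smallest F-test p, and for each member past the F-test the 3 genes with the closest profile, apart from those said to be named after their values were seen. Of the listed symbols, 3 had no match in the tables. Some listed genes are not reported here. Bnip3l is in 2 lists. Protein sequences were not analysed here.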

Additional observations from a re-analysis of the deposited data

Results flagged for a closer look

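For 7 of the members, the change against control differed between treated days, by an edgeR test of one day against the other. Of all tested genes, 44.9% differed at day 6 against day 2 and 22.0% at day 12 against day 6. The share of all genes that differed at either step was not computed. At day 6 against day 2, Hif1a was higher by 0.52 on the log2 scale (adjusted p = 6.62e-09), Epas1 by 0.81 (adjusted p = 0.000337, but 0.0940 with limma on log2(TPM + 1)) and Vegfa by 0.18 (adjusted p = 0.0195). At the same step, Egln1 stood at -0.80 (adjusted p = 1.21e-09), Car12 at -1.87 (adjusted p = 1.33e-15) and Bnip3 at -1.85 (adjusted p = 2.30e-21).

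At day 12 against day 6, Hif1a was higher by 0.80 (adjusted p = 9.36e-13), Egln1 by 0.43 (adjusted p = 0.000226), Egln3 by 0.73 (adjusted p = 9.70e-06) and Bnip3 by 1.00 (adjusted p = 4.70e-13), and Vegfa was at -0.21 (adjusted p = 0.0123). Egln1 and Bnip3 turned between the steps, lower at day 6 than at day 2 and higher at day 12 than at day 6, and Vegfa turned the other way. All of these comparisons use the same day 6 libraries, so they are not independent of each other.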

How the results depend on the processing

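The calls of Hif1a at every day, of Egln1 at day 6, and of Car12 and Bnip3 at days 6 and 12 kept direction and threshold in every fit run. The TPM fits moved most: with limma on log2(TPM + 1), log2(TPM + 0.1), no filter on low values, and without control C (chosen after seeing the data), 1601, 1566, 1380 and 1274 genes passed at day 2 against control, and 1247, 1143, 933 and 1172 at day 12 against day 6. Without control C 4557 passed at day 12 against control, and without the filter 3871 passed at day 6 against day 2. In these 4 fits 0 members fell at day 2, 1 rose without the filter or control C, and 0 fell at day 12 against day 6 without the filter. The cause was not tested. Calls of Epas1 at day 6 and day 12 against control and at day 6 against day 2 were lost in the 3 TPM fits with all libraries (adjusted p 0.0840 to 0.347).

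Signs turned only where there was no call. Epas1 at day 2 against control was -0.21, -0.26 and -0.21 (log2(TPM + 1), + 0.1, no filter). Egln3 at day 6 against day 2 was 0.0122, 0.0136, 0.0122 and 0.0122 in the 4 TPM fits. Vhl at day 6 against day 2 was -0.00154 with DESeq2 and -0.00652 with upper-quartile scaling. Adm at day 12 against day 6 was 0.00861 with log2(TPM + 0.1), and without control C it was -0.0128 at day 6 and -0.0167 at day 12 against control. Arnt2 at day 6 was 0.0731, 0.0752, 0.0731 and 0.11 in the 4 TPM fits, and Car15 at day 2 was -0.25, -0.35, -0.25 and -0.25. Car7 at day 2 was 0.13 without control C. The cause was not tested.

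With each library left out in turn, 2339 to 3083 genes passed at day 2, 6684 to 7586 at day 6 and 6492 to 7443 at day 12 against control, 5331 to 6108 at day 6 against day 2, 2062 to 3318 at day 12 against day 6, and 8345 to 9152 over the 4 groups. Members higher were 2 to 3 at day 2, 3 to 4 at day 6 and 2 to 3 at day 6 against day 2, members lower were 0 to 1 at day 2, 3 to 4 at day 6 and 0 to 1 at day 12 against day 6, and 7 to 8 passed over the 4 groups. Adm ran from -0.14 to 0.62 at day 6, from -0.0842 to 0.59 at day 12 and from -0.28 to 0.36 at day 12 against day 6, Vhl from -0.0929 to 0.11 at day 6 against day 2, Car7 from -0.87 to 0.0430 at day 2 and from -0.0190 to 1.05 at day 6, and Car15 from -0.0536 to 0.21 at day 2. Same-letter libraries of different groups correlated at -0.149 to 0.111 (median 0.00014), and 3 of 12 correlated best with their own letter, so the letters do not pair them. The replicate block gave 2932, 7370 and 7164 genes at days 2, 6 and 12 against control, left every member's call, and put Vhl at day 6 against day 2 at -0.00348. The exact tests of Car9 were run in 1 form only, and the planned protein features were not run.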
